A study of Mus musculus with 12 samples.

Results

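Tight junction transcripts were followed in cells sorted from the mouse prostate, as 9 genes. They were the claudins Cldn1, Cldn3, Cldn4, Cldn7, Cldn8 and Cldn10, occludin (Ocln), the zonula occludens scaffold ZO-1 (Tjp1) and junctional adhesion molecule A (F11r). They are 9 of 48795 gene identifiers in the count table, found by symbol, and the list was chosen by 1 measured value: Cldn8 was among the genes lowest at SCA1high. The level of Cldn8 along SCA1 is therefore given as a description with no test. That rule did not use the values of the other 8 genes, but the list was drawn up with earlier results of these data known. All 9 passed the filter on low counts.

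The cells came from prostates of wild-type C57BL/6 mice aged 6 to 8 weeks and were negative for the lineage proteins CD31, CD45 and Ter119. They were sorted by surface LY6D, present (LY6D+) or absent (LY6D-), and by SCA1, the protein encoded by Ly6a, into SCA1high, SCA1int (intermediate) and SCA1low. This gave 6 populations with 2 libraries each. The series speaks of biological replicates, but whether these were separate animals or pools is not stated, so a p-value speaks only of the spread among these libraries. Levels are in CPM, the count of a gene over the size of its library as adjusted by edgeR's TMM factors. The libraries read the 3' ends of polyadenylated RNA, so a count is nearly independent of transcript length and levels can be set side by side between genes.

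Tight junctions are the belt of contacts near the apical end of epithelial cells, where claudins of neighbouring cells pair and set how tightly the space between cells is sealed and which ions pass through it. Occludin and junctional adhesion molecules sit in the same membrane domain, and ZO-1 ties them to the actin cytoskeleton. In the prostate the luminal cells, which face the secretion, are joined by such junctions, and the basal cells lie beneath them.

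Total counts per library ran from 8436185 to 20022077. A pair of libraries was doubted: LY6D+ SCA1high replicate 2, which had the lowest total, and LY6D- SCA1low replicate 2, which correlated across genes at 0.73 with LY6D- SCA1high replicate 1 and at 0.68 with its own replicate. The second trait was not particular to it, since for 10 of the 12 libraries the highest correlation was outside their own population. Ly6d stood at 37 to 397 CPM in the LY6D+ libraries and at 0.433 to 3.85 in the LY6D- libraries. The epithelial keratins Krt8 and Krt18 were present in all 12 libraries, at no less than 66.4 and 108 CPM. Of the cells gated out, the leukocyte gene Ptprc (CD45) reached 0.216 CPM at most, but 10 leukocyte genes summed to 12.3 to 217 CPM, with Cd52 up to 204. The summed level of 5 erythroid genes was 4.07 to 828 CPM with Alas2 at 0 throughout, and Pecam1 (CD31) reached 573 CPM in LY6D- SCA1high.

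Promoter sequence is shown for 3 claudins on which the LY6D comparison turns: Cldn4 and Cldn1, which were higher in LY6D+ cells, and Cldn3, the chromosomal neighbour of Cldn4. Each is the stretch just upstream of the RefSeq transcription start on GRCm38.p6, 5′ to 3′ on the gene's strand, with bases of annotated exons left out. Cldn4 lies at chr5:134946935-134947184 on the minus strand, Cldn1 at chr16:26371842-26372089 on the minus strand and Cldn3 at chr5:134985964-134986213 on the plus strand. Capitals mark matches to the motifs given next.
Cldn4: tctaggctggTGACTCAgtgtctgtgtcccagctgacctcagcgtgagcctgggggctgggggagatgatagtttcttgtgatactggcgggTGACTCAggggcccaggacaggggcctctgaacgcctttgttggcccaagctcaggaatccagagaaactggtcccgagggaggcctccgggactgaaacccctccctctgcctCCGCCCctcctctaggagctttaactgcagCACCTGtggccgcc
Cldn1: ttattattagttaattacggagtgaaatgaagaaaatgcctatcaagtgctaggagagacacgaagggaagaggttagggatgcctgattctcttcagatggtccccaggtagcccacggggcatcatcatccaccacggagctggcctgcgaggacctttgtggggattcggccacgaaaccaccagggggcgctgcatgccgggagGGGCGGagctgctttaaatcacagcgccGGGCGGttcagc
Cldn3: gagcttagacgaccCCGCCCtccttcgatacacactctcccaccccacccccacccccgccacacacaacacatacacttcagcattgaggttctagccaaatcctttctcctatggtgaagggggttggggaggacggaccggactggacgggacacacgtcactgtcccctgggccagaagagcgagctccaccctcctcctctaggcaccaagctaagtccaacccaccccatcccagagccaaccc

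The motifs were searched on both strands of 32851 mouse promoter windows of up to 250 bases, with exon bases kept. The windows of the listed genes had exon bases left out, so the shares given next come from windows cut differently. The AP-1 motif TGANTCA occurs in 6.75% of them, the GC box GGGCGG in 32.7%, the E-box CACCTG in 17.2%, the Grainyhead-like motif AACCGGTT in 0.116%, the androgen receptor half-site AGAACA in 16.1% and the TATA box TATAAA in 12.4%. Cldn4 held 2 AP-1 motifs, 240 and 158 bases before its start, with 1 GC box and 1 E-box. Cldn1 held 2 GC boxes and no AP-1 motif, and Cldn3 held 1 GC box. The matches in these 3 windows did not overlap each other. Of the 8 genes with a RefSeq promoter entry, 1 (F11r) had no bases left outside exons, and Cldn4 alone among the others had an AP-1 motif. A match describes letters in a window and does not show that a factor binds. Cldn4 (ENSMUSG00000047501, chr5:134945119-134946934, minus strand) and Cldn3 (ENSMUSG00000070473, chr5:134986214-134987472, plus strand) are neighbours in GENCODE M21 on GRCm38, 39279 bases apart with 0 genes between them.

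Cldn4 was the most abundant claudin in every library, and it was higher in LY6D+ than in LY6D- cells. Claudin-4 is widely expressed in tubular and glandular epithelia. In LY6D+ cells its level was 1610 and 1630 CPM at SCA1high, 1300 and 1280 at SCA1int and 1740 and 1740 at SCA1low. In LY6D- cells it was 589 and 336 CPM at SCA1high, 1840 and 1130 at SCA1int and 871 and 457 at SCA1low. The LY6D- libraries thus lay below all LY6D+ libraries at SCA1high and SCA1low, and on either side of them at SCA1int. The share of all tested genes so arranged was not computed. Averaged over the SCA1 levels, Cldn4 was 2-fold higher in LY6D+ cells (log2 fold change 1 ± 0.2 SE, adjusted p = 0.00378, quasi-likelihood test of edgeR, with Benjamini-Hochberg adjustment across 15270 genes). At SCA1high alone it was 3.51-fold higher (1.81 ± 0.35, adjusted p = 0.01). At SCA1int the log2 difference was -0.2 ± 0.34 (adjusted p = 0.922), and at SCA1low it was 1.39 ± 0.34 (adjusted p = 0.069). In these bulk samples, fewer cells of a type and less RNA per cell cannot be told apart. LY6D- SCA1high, lowest in Cldn4 by mean (462 CPM), had the highest mean sum of 15 endothelial markers, 4050 CPM. In LY6D- SCA1int the means were 1490 CPM for Cldn4 and 1390 CPM for that sum, and in LY6D- SCA1low 664 and 455 CPM. The part of endothelial RNA in the Cldn4 difference was not tested. DESeq2 gave the average as 0.87 (adjusted p = 0.147), and the call at SCA1high was lost in DESeq2 (1.75, adjusted p = 0.109), in limma-trend (1.85, adjusted p = 0.101) and without LY6D- SCA1high replicate 2 (1.34, adjusted p = 0.188).

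Cldn1 (ENSMUSG00000022512, chr16:26356642-26371841, minus strand) was the other member called. Claudin-1 is a sealing claudin, best known for the water barrier of the skin. In LY6D+ cells it stood at 82 and 125 CPM at SCA1high, 121 and 98.6 at SCA1int and 9.88 and 21.7 at SCA1low. In LY6D- cells it stood at 11.1 and 3.01 CPM at SCA1high, 23.1 and 24.1 at SCA1int and 1.51 and 2.25 at SCA1low. At each SCA1 level both LY6D+ libraries lay above both LY6D- libraries, and within each LY6D state both SCA1low libraries lay below both SCA1int libraries. Of all tested genes, 2.02% lay above at all 3 levels in this way and 2.38% below. The average over SCA1 was 8.3-fold higher in LY6D+ cells (log2 fold change 3.05 ± 0.78 SE, adjusted p = 0.0305, edgeR).

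The Cldn1 call was close to the threshold and was lost with RLE factors on all 12 libraries (adjusted p = 0.0503, edgeR). It was lost in 10 of the 12 fits that left out 1 library, at adjusted p from 0.0573 to 0.138, and was kept only without LY6D+ SCA1high replicate 1 and without LY6D+ SCA1low replicate 1. Without both doubted libraries the log2 difference was 3.06 (adjusted p = 0.107). The value stayed between 2.81 and 3.44 in all 21 alternatives, which include DESeq2 (2.94, adjusted p = 2.79e-06).

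**Figure D1:**
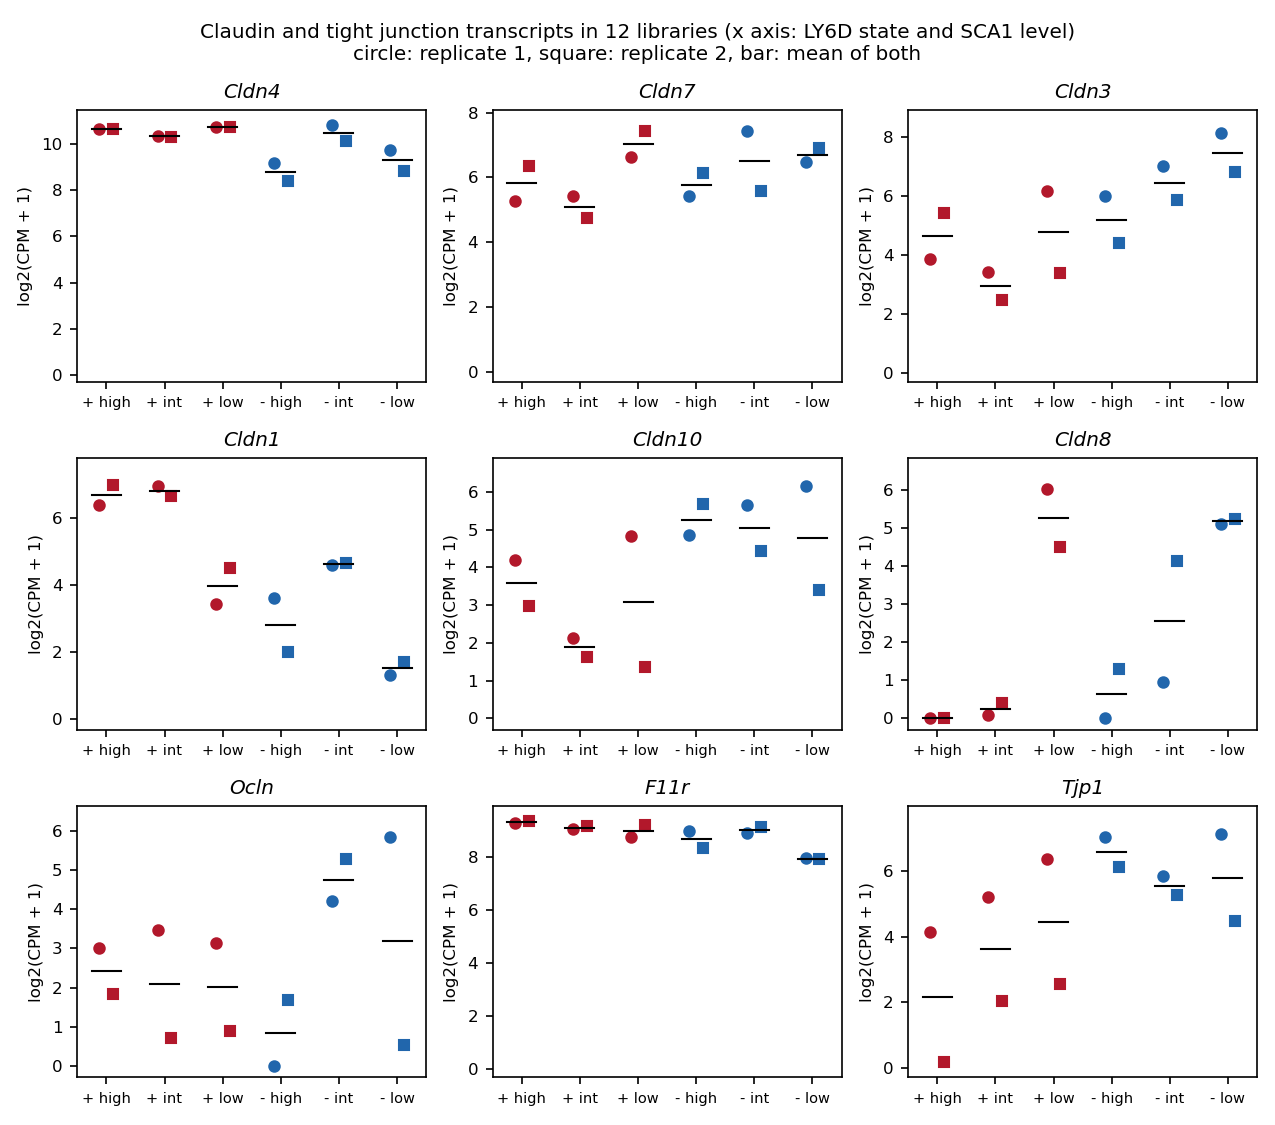
Level of each of the 9 genes, as log2(CPM + 1), in LY6D+ (red, "+") and LY6D- (blue, "-") cells at SCA1high, SCA1int and SCA1low; circles are replicate 1, squares replicate 2 and bars the mean of both. Cldn1 sits higher in red than in blue at each SCA1 level, Cldn8 lies near 0 at SCA1high and highest at SCA1low, and Ocln and Tjp1 spread widely between replicates.

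Markers of basal prostate epithelium moved with the same comparison. Of 10 such genes, 6 rose in LY6D+ cells (Krt5, Krt14, Krt15, Trp63, Dst and Itga6; background 1.27%) and 0 fell (background 1.21%). Their summed level was 2620 to 4970 CPM in the 6 LY6D+ libraries and 237 to 2130 CPM in the 6 LY6D- libraries, with no overlap. Krt15 had the largest mean of the 10, 1210 CPM over the 12 libraries. None of the 10 was at 0 in every library: Lama3 was at 0 in 3 libraries and Trp63 had a minimum of 0.0782 CPM. Within LY6D- cells the sum was highest at SCA1int (1910 and 2130 CPM), where Cldn1 and Cldn4 also had their highest LY6D- levels. Within LY6D+ cells it was lowest at SCA1low (2620 and 3250 CPM), where Cldn1 was lowest and Cldn4 highest. Other lists moved in this comparison too. Of 11 luminal markers 3 fell in LY6D+ cells (Pbsn, Msmb and Spink1) and 0 rose. Of 9 tested fibroblast and smooth muscle genes 1 rose (Dcn, log2 difference 1.48 ± 0.22, adjusted p = 0.000141, edgeR) and 0 fell. That list, mostly Dcn, summed to 789 to 1300 CPM in LY6D+ and 211 to 752 CPM in LY6D- libraries, without overlap. The part of basal, luminal or fibroblast RNA in the Cldn1 and Cldn4 differences was not tested.

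**Figure D2:**
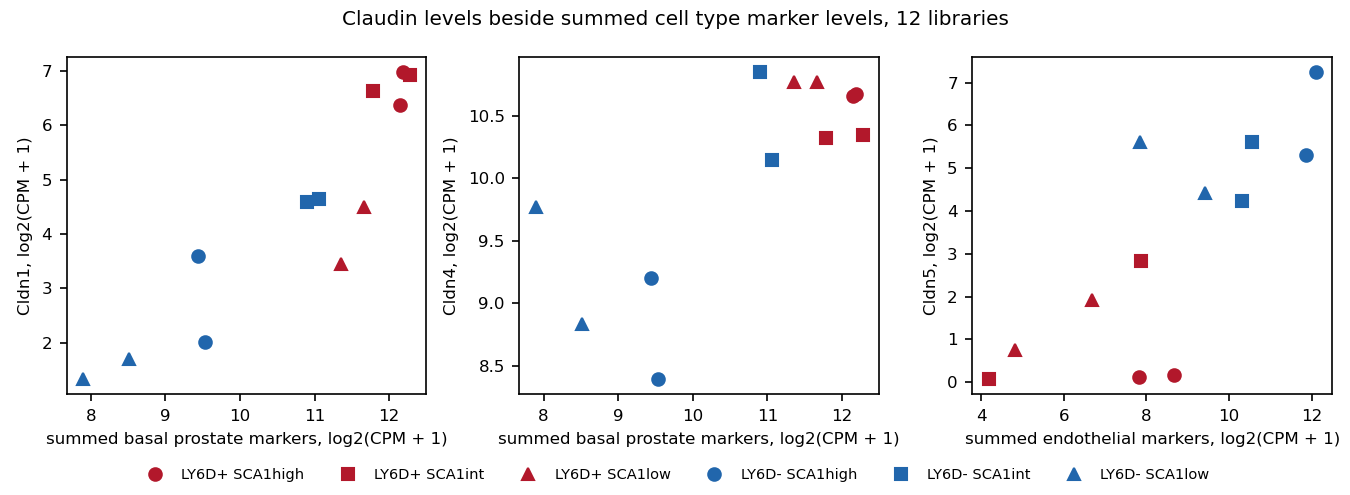
Levels of Cldn1 and Cldn4 against the summed level of 10 basal prostate markers, and of Cldn5 against the summed level of 15 endothelial markers, each as log2(CPM + 1) in the 12 libraries; colour gives the LY6D state and symbol the SCA1 level. Basal sums of the LY6D+ libraries (2620 to 4970 CPM) lie to the right of those of the LY6D- libraries (237 to 2130 CPM).

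Cldn3, a sealing claudin, had a median of 11.7 CPM in LY6D+ and 87.3 CPM in LY6D- cells, a difference that did not pass the test. Its levels in LY6D+ cells were 13.7 and 42.2 CPM at SCA1high, 9.65 and 4.61 at SCA1int and 71.3 and 9.41 at SCA1low. In LY6D- cells they were 63.2 and 20.3, 129 and 58.1, and 281 and 112 CPM at the same SCA1 levels. LY6D+ libraries lay below at SCA1int and SCA1low and overlapped at SCA1high, an arrangement whose share over all tested genes was not computed. The average difference was -2.19 ± 0.66 on the log2 scale (adjusted p = 0.072, edgeR). It was called in 6 of 21 alternatives, among them DESeq2 (-2.34, adjusted p = 0.00484) and the fit without both doubted libraries (-2.7, adjusted p = 0.0325). The last 40 bases of Cldn3 overlap the antisense gene Wbscr25, and the strand setting of the counting is not given in the sources used here, so the tags of the pair (10357 and 4552 counts in all) may be mixed.

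Cldn10 (ENSMUSG00000022132, chr14:118787908-118875489), whose isoforms form pores selective for cations or anions, had a median of 5.11 CPM in LY6D+ and 38.9 CPM in LY6D- cells. It was 17.3 and 6.82 CPM at SCA1high, 3.4 and 2.06 at SCA1int and 27.7 and 1.56 at SCA1low in LY6D+ cells. In LY6D- cells it was 27.9 and 50.8, 49.9 and 20.9, and 70.7 and 9.61 CPM. LY6D+ lay below without overlap at SCA1high and SCA1int, and how many of all tested genes did so was not computed. The average difference of -2.28 ± 1.07 (log2) had an adjusted p of 0.221 in edgeR.

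Cldn7 (ENSMUSG00000018569, chr11:69964779-69967885), a claudin that binds EpCAM and also lies along the lateral membrane, ran from 26.2 to 172 CPM with medians of 62 CPM in LY6D+ and 78.5 CPM in LY6D- cells. The groups overlapped at SCA1high and SCA1low, and the average log2 difference was -0.4 ± 0.54 (adjusted p = 0.762, edgeR).

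Cldn4 dominated the summed counts of the 6 claudins in both LY6D states. Their summed level was 1420 to 2010 CPM in LY6D+ and 481 to 2220 CPM in LY6D- libraries. Cldn4 took 86.5% to 91.5% of it in the 6 LY6D+ libraries (median 88.3%) and 62% to 87.2% in the 6 LY6D- libraries (median 75.1%). The 2 LY6D- SCA1low libraries had the lowest Cldn4 shares, 64.7% and 62% (95% exact Clopper-Pearson intervals 63.9% to 65.6% and 61% to 63%, counting error only). Cldn3 took 0.325% to 3.55% in LY6D+ and 4.22% to 20.9% in LY6D- libraries. Cldn10 took 0.0792% to 1.38% and 1.3% to 10.6%, and Cldn1 0.492% to 8.14% and 0.112% to 1.86%. Cldn3 shares thus did not overlap between the LY6D states, whereas those of the other 5 claudins did. These shares depend on one another, since Cldn4 supplies most of the sum, and were not tested.

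**Figure D3:**
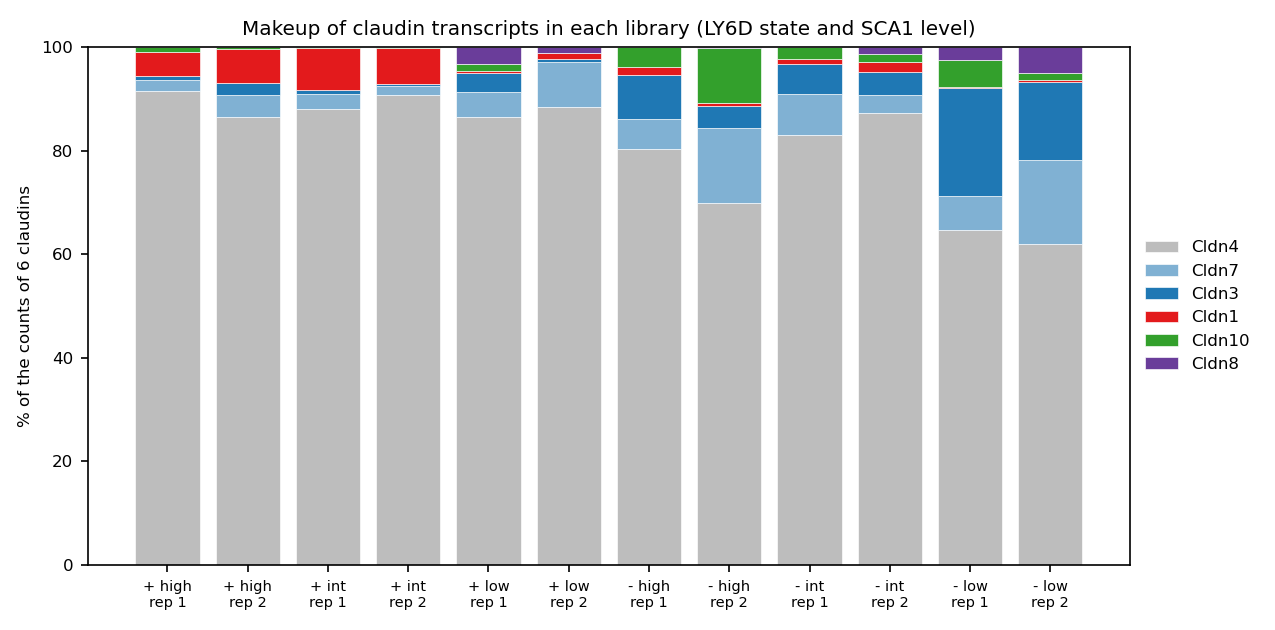
Share of each of 6 claudins in their summed counts, in percent, 1 bar for each of the 12 libraries, named by LY6D state (+ or -), SCA1 level and replicate. Grey (Cldn4) takes 86.5% to 91.5% in the LY6D+ bars and 62% to 87.2% in the LY6D- bars, where blue (Cldn3, 4.22% to 20.9%) is wider.

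F11r (ENSMUSG00000038235, chr1:171437535-171464603), an immunoglobulin-like adhesion molecule of the junction, had a narrow range, from 240 to 650 CPM over the 12 libraries. LY6D+ cells held 625 and 650 CPM at SCA1high, 529 and 571 at SCA1int and 430 and 592 at SCA1low. LY6D- cells held 509 and 329, 477 and 568, and 245 and 240 CPM. LY6D+ libraries lay above at SCA1high and SCA1low and overlapped at SCA1int, the same arrangement as for Cldn4. Its share over all tested genes was not computed. The average log2 difference was 0.58 ± 0.24 (adjusted p = 0.151, edgeR).

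Tjp1 (ENSMUSG00000030516, chr7:65296165-65527781) had a median of 10.8 CPM in LY6D+ and 62.9 CPM in LY6D- cells, with replicates far apart. LY6D+ cells held 16.8 and 0.118 CPM at SCA1high, 35.7 and 3.07 at SCA1int and 81 and 4.82 at SCA1low. LY6D- cells held 131 and 69.7, 56.2 and 37.9, and 140 and 21.1 CPM. By mean, Tjp1 was highest in LY6D- SCA1high (100 CPM), where the endothelial marker sum was also highest (4050 CPM). In LY6D- SCA1low the means were 80.5 CPM for Tjp1 and 455 CPM for that sum, and in LY6D- SCA1int 47.1 and 1390 CPM. The part of endothelial RNA in the level of Tjp1 was not tested. LY6D+ lay below without overlap at SCA1high and SCA1int, and how many of all tested genes did so was not computed. The average log2 difference was -1.92 ± 0.9 (adjusted p = 0.224, edgeR), and it was called in 1 of 12 fits that left out 1 library, at -3.93 without LY6D+ SCA1high replicate 1 (adjusted p = 0.0201). Without LY6D- SCA1low replicate 1 it was -1.29 (adjusted p = 0.534).

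Ocln (ENSMUSG00000021638, chr13:100496507-100552718) was low and uneven. Its levels were 7.06 and 2.59 CPM at SCA1high, 10.2 and 0.635 at SCA1int and 7.74 and 0.856 at SCA1low in LY6D+ cells. In LY6D- cells they were 0 and 2.2, 17.5 and 38.2, and 56.7 and 0.433 CPM. The LY6D+ libraries lay above the LY6D- libraries at SCA1high and below them at SCA1int, an arrangement whose share over all tested genes was not computed. The average log2 difference was -0.99 ± 1.45 (adjusted p = 0.789, edgeR), and it turned positive without LY6D- SCA1high replicate 2 (1.32) and without LY6D- SCA1low replicate 1 (0.95).

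Over the 9 genes, then, 2 were higher and 0 lower in LY6D+ cells in the average over SCA1, while 2.48% of all tested genes were called in either direction (1.27% higher, 1.21% lower). The median log2 difference of the 9 was -0.99, beside 0.03 over all tested genes. At an unadjusted p below 0.05 there were 7 of 9, Cldn8 among them, beside 20.4% of all genes. At SCA1high, where the level of Cldn8 chose the list, 1 of the other 8 was called (Cldn4), beside 0.262% of all genes, and 3 of the 8 had an unadjusted p below 0.05 (Cldn4, Cldn1 and Tjp1), beside 11.7%. DESeq2 also called 1 there, but Cldn1 (3.84, adjusted p = 0.00124) in place of Cldn4. At SCA1int 0 of 9 were called (background 0.203%), 1 at an unadjusted p below 0.05 (background 6.17%) and 1 by DESeq2 (Cldn3, -3.63, adjusted p = 0.0361). At SCA1low 0 of 9 were called (background 0.472%), 3 at an unadjusted p below 0.05 (background 12%) and 1 by DESeq2 (Cldn1, 2.66, adjusted p = 0.0394).

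**Figure D4:**
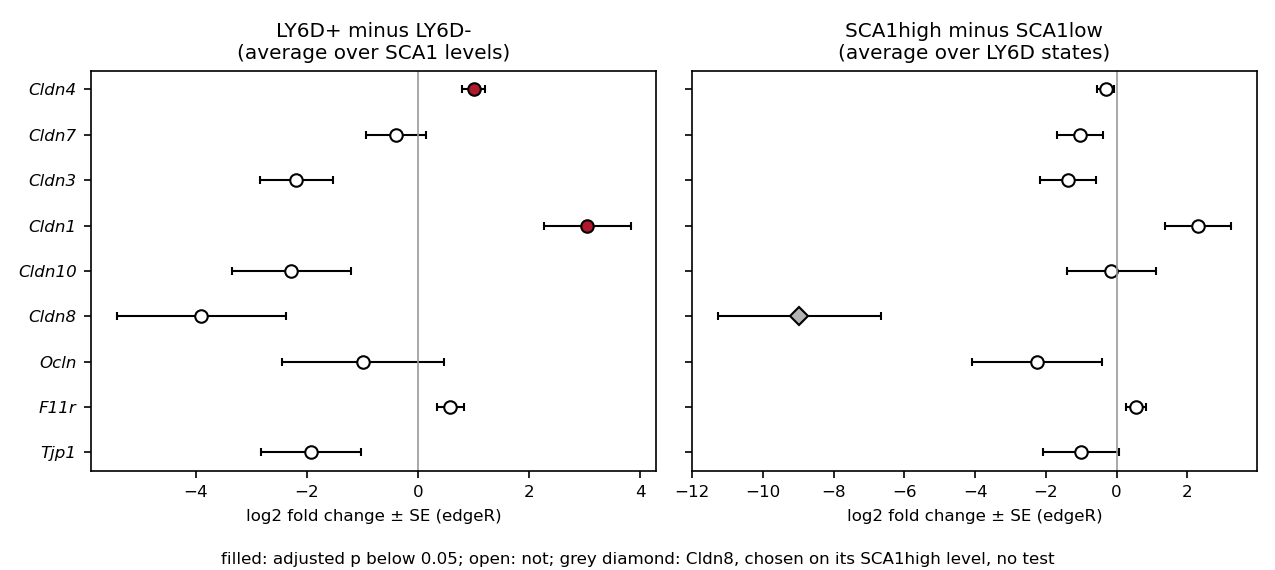
Log2 fold changes ± SE from edgeR for the 9 genes, on the left LY6D+ against LY6D- averaged over SCA1, on the right SCA1high against SCA1low averaged over LY6D. Filled points (Cldn4 at 1 and Cldn1 at 3.05) passed an adjusted p below 0.05; the grey diamond is Cldn8, which has no test there and whose fitted value rests on a population at 0.

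Cldn8 (ENSMUSG00000050520, chr16:88560828-88563183, minus strand), the gene that led to this list, is known from the kidney collecting duct, where it recruits claudin-4 to the junction and takes part in chloride passage between cells. Its levels in LY6D+ cells were 0 and 0 CPM at SCA1high, 0.0539 and 0.318 at SCA1int and 64.6 and 21.8 at SCA1low. In LY6D- cells they were 0 and 1.44 CPM at SCA1high, 0.927 and 16.7 at SCA1int and 33.9 and 37 at SCA1low. Both SCA1low populations stood apart from the other 4 without overlap and overlapped each other. A count of 0 allows up to 3 counts, which is 0.135 and 0.353 CPM in the LY6D+ SCA1high libraries and 0.235 CPM in LY6D- SCA1high replicate 1. The LY6D+ SCA1low mean of 43.2 CPM was 177-fold above the mean of that floor over LY6D+ SCA1high (0.244 CPM). This ratio allows for the counts of 0 only, since the LY6D+ SCA1low libraries themselves lay far apart, at 64.6 and 21.8 CPM.

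Ordered by mean level, Cldn8 ran from LY6D+ SCA1low (43.2 CPM) and LY6D- SCA1low (35.4 CPM) to LY6D- SCA1int (8.79), LY6D- SCA1high (0.72), LY6D+ SCA1int (0.186) and LY6D+ SCA1high (0). Of neighbours in that order, the SCA1low pair, LY6D- SCA1int with LY6D- SCA1high, and LY6D- SCA1high with LY6D+ SCA1int overlapped. At SCA1int both LY6D- libraries lay above both LY6D+ libraries, and the share of all tested genes that did so was not computed. The average LY6D difference of -3.9 ± 1.52 (log2) had an adjusted p of 0.139 in edgeR, and DESeq2 gave -3.81 (adjusted p = 0.0108). These fitted values rest in part on a population at 0: limma-trend gave -0.95 (adjusted p = 0.664), and without LY6D- SCA1high replicate 2 the value was -1.69 (adjusted p = 1).

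Secretory genes of the prostate moved with SCA1 as well. Of 11 luminal markers, 3 fell at SCA1high against SCA1low (Pbsn, Msmb and Spink1) and 0 rose (background 1.21% in either direction). In LY6D+ cells the luminal sum was 1640 CPM ± 7.68 at SCA1high, 2060 ± 330 at SCA1int and 18200 ± 6340 at SCA1low (SD, n = 2). In LY6D- cells it was 3550 ± 1350, 30000 ± 2830 and 64500 ± 29200 CPM. Of 5 tested seminal vesicle genes 3 fell (Svs4, Svs5 and Pate4), beside the same background. Their list summed to 467 to 14800 CPM in the 4 SCA1low libraries and to 272 to 757 CPM in the 4 SCA1high libraries. Spink1 and Pbsn had by far the largest means of the luminal markers, 16000 and 2650 CPM over the 12 libraries, so the luminal sum follows mainly these genes. By mean, LY6D- SCA1low, LY6D- SCA1int and LY6D+ SCA1low held the most luminal marker RNA and also the most Cldn8, in different orders. The part of these lists in the level of Cldn8 was not tested.

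None of the other 8 genes was called between SCA1high and SCA1low in the average over LY6D (0 of 8, background 1.21%); at an unadjusted p below 0.05 there was 1 of 8 (background 12.1%), and 1 by DESeq2. That gene was Cldn1, with 2.31 ± 0.93 on the log2 scale (adjusted p = 0.329, edgeR) and 2.04 in DESeq2 (adjusted p = 0.0271). The median log2 difference of the 8 was -0.66, beside 0.15 over all genes. Within LY6D+ cells 0 of 8 were called (background 0.327%), 0 at an unadjusted p below 0.05 (background 8.61%) and 1 by DESeq2 (Cldn1, 2.63, adjusted p = 0.0471). Within LY6D- cells 0 of 8 were called (background 0.635%), 0 at an unadjusted p below 0.05 (background 6.65%) and 0 by DESeq2.

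The neighbouring steps of SCA1 gave no call for these 8 genes in edgeR either. Between SCA1high and SCA1int there were 0 of 8 (background 0.138%), 1 at an unadjusted p below 0.05 (background 8.83%) and 0 by DESeq2; Cldn4 had -0.68 ± 0.24 (adjusted p = 0.534). Between SCA1int and SCA1low there were 0 of 8 (background 0.334%), 3 at an unadjusted p below 0.05 (background 9.65%) and 1 by DESeq2. Cldn1 had the largest absolute value of the 8 in that step, 3.22 ± 0.96 in edgeR (adjusted p = 0.303) and 2.97 in DESeq2 (adjusted p = 0.000852). The LY6D difference at SCA1high did not differ detectably from that at SCA1low for any of these 8 genes (interaction, 0 of 8 called, background 0.0393%). At an unadjusted p below 0.05 there were 0 (background 7.6%), and 0 were called by DESeq2. Cldn8 is left out here, since this contrast is built from the SCA1high and SCA1low values on which it was chosen. For Cldn4 the interaction was 0.42 ± 0.48 and for Cldn1 0.81 ± 1.79 on the log2 scale, so the error for Cldn1 spans several fold.

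The genes whose levels followed Cldn8 most closely over the 12 libraries, among 8097 genes searched, were Gsdma (Pearson r of log2(CPM + 1) 0.93), Egf (0.92), Atp12a (0.91), Dnajc10 (0.91), Sec61g (0.91) and Ssr4 (0.9). These values carry no test, since the genes were picked for their likeness to Cldn8 over these same libraries. A shared pattern along SCA1 follows from that choice. The 12 libraries also differ in depth and in their marker sums. Gsdma, a gasdermin gene, had 0.135 and 0 CPM in LY6D+ SCA1high and 186 and 51.6 CPM in LY6D+ SCA1low. Atp12a, a proton and potassium pump, had 0.18 and 0 CPM in LY6D+ SCA1high and 80.5 and 3.58 CPM in LY6D+ SCA1low. Dnajc10, Sec61g and Ssr4 belong to the protein machinery of the endoplasmic reticulum and were present throughout: the lowest level of Sec61g was 250 CPM, in an LY6D- SCA1high library, and its highest 991 CPM, in an LY6D- SCA1low library.

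**Figure D5:**
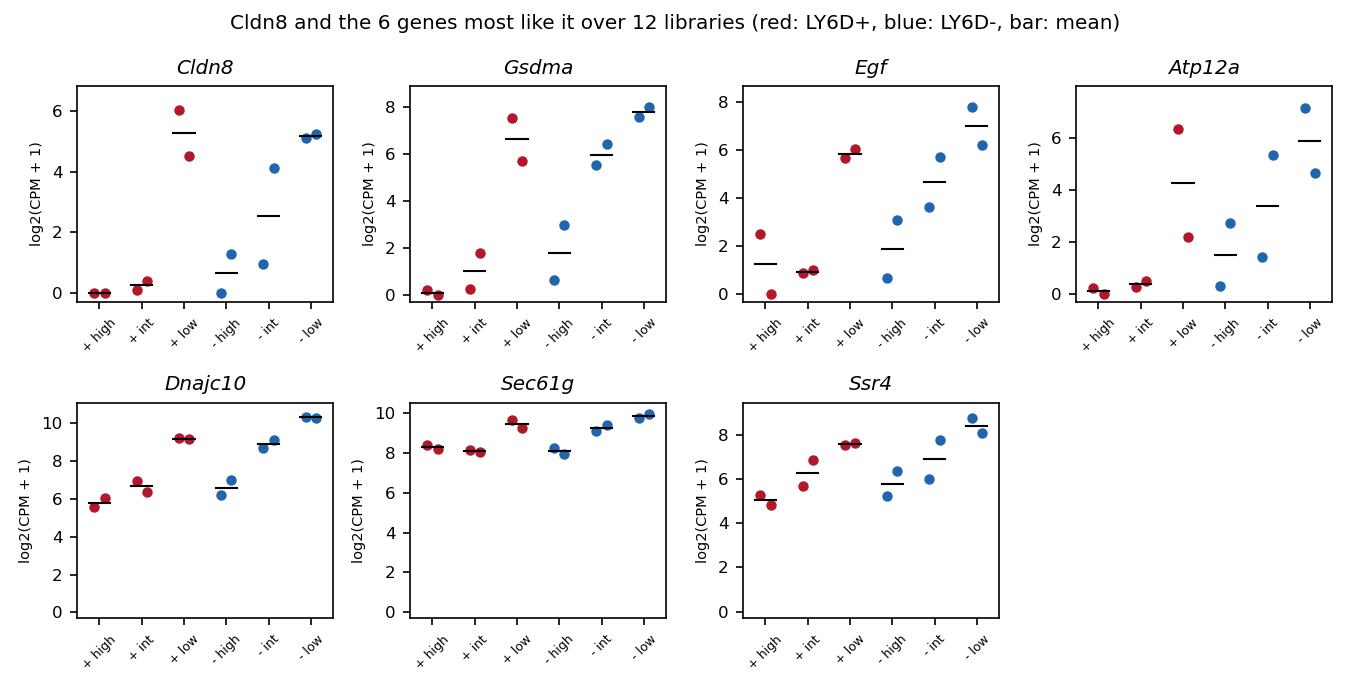
Cldn8 and the 6 genes with the highest correlation to it, as log2(CPM + 1) in each of the 12 libraries by LY6D state (red +, blue -) and SCA1 level, with bars at the mean. By mean, all are highest at SCA1low in both LY6D states, which follows from how they were picked. Gsdma and Atp12a are at most 0.18 CPM in LY6D+ SCA1high, whereas Sec61g is at least 250 CPM in every library.

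Among 47 further genes of the tight junction, 33 passed the filter, and 1 was higher and 2 were lower in LY6D+ cells in the average over SCA1 (background 2.48%). The gene that rose was Pard3, a scaffold of epithelial polarity: 113 to 309 CPM in the 6 LY6D+ libraries and 4.52 to 69.9 CPM in the 6 LY6D- libraries, without overlap. Its log2 difference was 2.75 ± 0.58 (adjusted p = 0.00726, edgeR), and it was called in all 21 alternatives. The other 19 scaffold and polarity genes were not called, the cingulin genes among them.

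The genes that fell were Cldn5 and Esam, a claudin and an adhesion molecule of endothelial tight junctions. Cldn5 stood at 0.0899 and 0.118 CPM in LY6D+ SCA1high and at 38.7 and 150 CPM in LY6D- SCA1high; over all LY6D+ libraries its highest level was 6.09 CPM and over all LY6D- libraries its lowest was 17.9 CPM. The log2 difference was -5.81 ± 1.24 (adjusted p = 0.00836, edgeR). Esam fell with -2.86 ± 0.52 (adjusted p = 0.00148, edgeR) and rose at SCA1high against SCA1low with 3.25 ± 0.65 (adjusted p = 0.00495, edgeR), the single call among the 33 in that comparison (background 1.21%). In LY6D- cells Esam was 697 and 989 CPM at SCA1high and 42.4 and 122 CPM at SCA1low.

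Endothelial markers moved with both genes in the LY6D comparison. There, 8 of 15 such markers fell in LY6D+ cells (background 1.21%) and 0 rose (background 1.27%). Along SCA1, 5 rose at SCA1high, as Esam did, and 0 fell (background 1.21% in either direction). The Cldn5 difference there was -1.26 ± 1.27 (adjusted p = 0.72, edgeR). The most abundant were Flt1 (mean 216 CPM over the 12 libraries), Egfl7 (136), Kdr (130) and Pecam1 (127). Their sum was 3710 and 4390 CPM in LY6D- SCA1high, 1280 to 1510 in LY6D- SCA1int, 228 to 681 in LY6D- SCA1low and 17.1 to 406 CPM over the 6 LY6D+ libraries. Cdh5 and Sox18 were at 0 in 1 library each, and none of the 15 was at 0 in every library. CD31-positive cells had been gated out, and the part of endothelial RNA in the Cldn5 and Esam differences was not tested.

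Of the other 17 claudin genes, only Cldn5, Cldn12 and Cldn23 passed the filter, and the other 14 reached 0.424 CPM at most. Cldn12 and Cldn23 were not called in the LY6D average. Among 20 tested partners and regulators of claudins, 0 were called in the LY6D average (background 2.48%), and 4 had an unadjusted p below 0.05 (background 20.4%).

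Of 17 tested genes of adherens junctions and desmosomes, 2 rose in LY6D+ cells (background 1.27%) and 0 fell (background 1.21%), and 10 had an unadjusted p below 0.05 (background 20.4%). Pkp3, a desmosomal plaque protein, was 129 to 348 CPM in LY6D+ and 0.86 to 81.2 CPM in LY6D- libraries, without overlap (log2 difference 3.08 ± 0.64, adjusted p = 0.00606, edgeR). Cdh3, the P-cadherin of basal epithelia, rose by 3.39 ± 0.8 (adjusted p = 0.0174, edgeR), a call lost in 6 of 21 alternatives. Both moved with the basal marker sums given above, whose part was not tested here either.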

How the data were processed

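RNA of the 12 libraries was extracted with Trizol, and 10 to 20 ng went into Lexogen QuantSeq 3' mRNA libraries (FWD), per the labels' protocols. No molecular identifiers are named, so intervals and floors cover counting error only. The submitters' processing notes name the build mm10 and, with no roles or order, STAR 2.5.1, cutadapt 1.9.1, featureCounts, edgeR, Subread, Picard 1.96 and SAMtools 1.3.1. Which annotation and strand setting were used is not given in the sources used here. The authors deposited raw counts per gene for 48795 identifiers, 48349 of which had a symbol in the table of gene names. The deposited signal values equal those counts divided by 1 TMM-scaled factor per library, and served for 1 alternative.

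Tests were made on the raw counts in R 4.3.3 with edgeR 4.0.16: TMM, filterByExpr by population (15270 genes), 1 mean per population, glmQLFit and glmQLFTest, 6 residual degrees of freedom, common dispersion 1.65. Adjusted p-values are Benjamini-Hochberg over all tested genes, called below 0.05; SE is |log2 fold change| over the square root of F. The alternatives were RLE factors, library size alone, no filter, DESeq2 1.42.0, a replicate block, an additive model, limma-trend (limma 3.58.1) on log2 of the deposited signal plus 1, ribosomal RNA features left out, both doubted libraries left out, and each library left out in turn. Shares have 95% exact Clopper-Pearson intervals. The script was tested on simulated data.

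The 9 genes and all gene lists were chosen with earlier results of these data known. Named are all 9 genes, at most 4 called genes per other list and comparison by smallest p, the 4 most abundant endothelial markers, and the 6 genes most like Cldn8 among genes whose mean log2 CPM reached 3. Markers named for basal, luminal and seminal vesicle cells beyond that rule were chosen after their values were seen. A few genes under this rule are left out of the text.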

Additional observations from a re-analysis of the deposited data

Results flagged for a closer look

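Ocln differed in direction between SCA1 levels. Both LY6D+ libraries lay above both LY6D- libraries at SCA1high, by 3.72 CPM between the means, and below both at SCA1int, where the LY6D+ minus LY6D- difference was -22.4 CPM. This difference between levels was not tested, and the share of all tested genes with such a reversal was not computed. The levels behind it are low at SCA1high, where 1 LY6D- library was at 0 and the other at 2.2 CPM.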

How the results depend on the processing

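The count of the 9 genes called in the LY6D average (2) became 1 with RLE factors and in the additive model. Without both doubted libraries Cldn1 was lost and Cldn3, lower in LY6D+ cells, was added (log2 differences 3.06 and -2.7). The count became 4 with DESeq2, which lost Cldn4 and added Cldn3, Cldn8 and Cldn10. It changed in some fits that left out 1 library and was 2 with the replicate block (Cldn4 and Cldn1 again). At SCA1high (1) it became 0 in limma-trend, stayed 1 in DESeq2 with Cldn1 in place of Cldn4, and ran from 0 to 1 over left-out libraries. At SCA1low (0) it became 1 with library size alone, no filter, DESeq2 and the replicate block, and ran from 0 to 1; Cldn4 there was called in 13 of 20 alternatives. DESeq2 gave 1 in place of 0 at SCA1int, for SCA1high against SCA1low in the average and within LY6D+, and for SCA1int against SCA1low. For SCA1high against SCA1int it ran from 0 to 1 over left-out libraries. Among the other tight junction genes the LY6D count (3) became 7 with DESeq2 and 5 without both doubted libraries and ran from 3 to 5; the SCA1high against SCA1low count (1) became 4 with DESeq2 and 0 in limma-trend, where Esam had an adjusted p of 0.148. Cldn5 was lost in the additive model (adjusted p = 0.0697). The cause was not tested.

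No called value reversed. Of 1836 alternative values for the 9 genes, 110 changed sign without a call in either fit. Another scaling moved the median over all genes, for the LY6D average from 0.03 to -0.09 with RLE factors, and for SCA1high against SCA1low from 0.15 to -0.12 with RLE factors and 0.63 with library size alone. Same-numbered libraries of different populations did not deviate together (15 pairs, r from -0.2 to 0.13), so the block was not used as the main fit; with it Tjp1 had -3.02 in the LY6D average (adjusted p = 0.0574). With 2 libraries per population, a fit that left 1 out took the lone library to vary like the other populations, and a count of 0 in the LY6D+ SCA1high libraries bounds Cldn8 at 0.135 and 0.353 CPM.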

Other observations

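Replicate 1 was above replicate 2 for Tjp1 in 6 of 6 populations, from 131 against 69.7 CPM in LY6D- SCA1high to 16.8 against 0.118 CPM in LY6D+ SCA1high. The descriptions of the samples and the deposited column headers carry 1 shared prefix for each replicate number in all 6 populations, and what it stands for is not stated. Within SCA1 level and replicate number, LY6D+ was lower than LY6D- in 6 of 6 pairs for Tjp1 and for Cldn10. LY6D+ was higher in 6 of 6 pairs for F11r and for Cldn1, and in 5 of 6 for Cldn4. Cldn3 was lower in 5 of 6 pairs and Cldn8 in 4, while Cldn7 and Ocln were higher in 3 and lower in 3. The share of all tested genes with 6 of 6 pairs was not computed, and the pairs were not tested.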
